A study of Mus musculus with 30 samples.

Results

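Of the 55401 genes in 3 count tables of mouse hypothalamus, 42 that are induced by interferon or take part in antigen presentation were followed across 9 groups of fed, fasted and refed mice. They were taken by gene name and matched by Ensembl identifier, and all 42 were present in every table. The RNA came from hypothalamus of wild-type B6 mice, 30 libraries in all. The groups with no food were fasted for 24 h (n = 3), for 72 h (n = 3) and for 72 h with cold exposure to 18 C (n = 3), and the group they are set against was fed (n = 3). All refed groups had first been fasted for 72 h and were then given food again. They were taken after 1 h (3 libraries), 12 h (3 libraries), 1 week (4 libraries) and 1 month (4 libraries) of food, and the last had a fed control of its own (4 libraries). The 1 h, 12 h and 1 week libraries share a table with no fed library among those used here, so 1 h of refeeding is the base there. Levels are counts per 1000000 of the library after TMM scaling (CPM), and fold changes are from the edgeR quasi-likelihood fit of each table. A gene was called when its edgeR p, adjusted over all genes of the table by Benjamini-Hochberg, was below 0.05. The labels do not say whether each library came from its own animal, so p-values measure the spread between these samples, which may be technical. They give neither age nor sex.

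Interferons are signalling proteins that cells release when sensors detect foreign nucleic acid. Type I interferons act through Jak1 and Tyk2 on a complex that includes Stat2 and Irf9 and binds a short promoter element, the interferon-stimulated response element (ISRE), and switches on antiviral genes, while interferon gamma acts on genes that include the guanylate-binding proteins and the antigen presentation machinery. In MHC class I presentation the immunoproteasome cuts peptides, Tap1 helps carry them into the endoplasmic reticulum, and they are shown at the surface on a heavy chain such as H2-K1 or H2-D1 paired with B2m. In the brain, microglia, endothelial cells and meningeal cells are known to respond strongly to interferon, and neurons show little class I at rest.

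The stretches of promoter printed here show the ISRE core that many members carry and the likeness of Ifit3 and Ifit3b. They run from 160 to 21 bases before the transcription start, 5′ to 3′ on the strand of the gene, and are RefSeq sequence of build GRCm38.p6. Capitals mark GAAANNGAAA, the ISRE core, on either strand, and in Isg15 and Bst2 the capitals hold matches that overlap each other.
Ifit1: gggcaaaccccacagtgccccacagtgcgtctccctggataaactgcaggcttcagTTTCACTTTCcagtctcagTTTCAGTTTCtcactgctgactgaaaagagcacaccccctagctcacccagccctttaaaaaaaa
Ifit3: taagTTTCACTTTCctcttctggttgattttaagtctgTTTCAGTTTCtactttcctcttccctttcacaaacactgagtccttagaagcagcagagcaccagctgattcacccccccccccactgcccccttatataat
Ifit3b: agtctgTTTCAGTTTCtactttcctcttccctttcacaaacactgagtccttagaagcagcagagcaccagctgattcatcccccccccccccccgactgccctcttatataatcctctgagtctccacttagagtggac
Isg15: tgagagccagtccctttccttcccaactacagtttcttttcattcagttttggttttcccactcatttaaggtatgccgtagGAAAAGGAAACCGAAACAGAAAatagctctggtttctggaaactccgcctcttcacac
Bst2: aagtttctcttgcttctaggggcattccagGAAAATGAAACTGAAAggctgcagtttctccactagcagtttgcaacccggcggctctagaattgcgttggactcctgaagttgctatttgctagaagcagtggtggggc
Gbp7: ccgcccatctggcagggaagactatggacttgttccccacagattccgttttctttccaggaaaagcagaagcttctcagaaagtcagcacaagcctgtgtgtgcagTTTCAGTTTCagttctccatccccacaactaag
B2m: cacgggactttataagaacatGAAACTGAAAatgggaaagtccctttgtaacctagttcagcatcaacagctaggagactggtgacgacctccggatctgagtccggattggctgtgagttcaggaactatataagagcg
Their positions are Ifit1 chr19:34640729-34640868, plus strand, Ifit3 chr19:34583369-34583508, plus strand, Ifit3b chr19:34607797-34607936, plus strand, Isg15 chr4:156200839-156200978, minus strand, Bst2 chr8:71537493-71537632, minus strand, Gbp7 chr3:142530176-142530315, plus strand, B2m chr2:122147527-122147666, plus strand. Isg15 held 3 matches in the stretch, Ifit1, Ifit3 and Bst2 held 2 each, and Ifit3b, Gbp7 and B2m 1 each. Set off by 32 bases, the stretches of Ifit3 and Ifit3b are identical at 85.2% of 108 positions, and Ifit3b has another match outside its printed stretch, 188 bases before its start. RefSeq windows of 300 bases (250 before the start and 50 from it on) were at hand for 33 members. Of these, 19 (57.6%) held GAAANNGAAA on either strand, against 3.99% of the 27025 genes with a window. The other element searched was TTCNNNGAA, the gamma-activated site, which reads the same on both strands. It was in 8 of 33 members (24.2%), against 9.55% of all genes with a window. Of the 14 members with a window that were called higher at 12 h of refeeding, 11 held the ISRE core, and of the other 19 members with a window 8 did. The other 19 include B2m, Ifitm2 and Igtp, which hold the core, and Psmb8. None of these was tested at 12 h, so they were not found unchanged. Of the 17 with a window called higher at 1 month, 11 held the core, and of the other 16, 8 did.

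The libraries held 27111216 to 43397395 counts in the fasting table and 9347942 to 13813956 in the 1-month table. In the refeeding table the 1 h and 12 h libraries held 26115967 to 34051433 counts and the 1-week libraries 46909406 to 64269426. Every 1-week library was thus deeper than every 1 h and 12 h library, and the part of depth in the 1-week comparisons was not tested. Summed CPM of 12 hypothalamic markers, among them Pomc, Agrp and Hcrt, was at least 176 in every library, and none of these markers was at 0. The fasting and refeeding tables appear to have been counted over whole gene spans without strand, and genes inside another gene are then listed at or near 0. This removed 4 members from both. B2m, which lies wholly inside the span of Patl2, had 0 counts in the fasting and 0 in the refeeding table but 8483 in the 1-month table. Gbp4 (inside Gbp8 and Gbp9) had 0, 0 and 237 counts in the same order, Ifitm2 (inside Gm45717) 1, 2 and 434, and Igtp (inside Irgm2) 4, 4 and 628. These values say nothing of their expression in the first 2 tables. Other genes overlap 62.8% of the span of Usp18, 57.3% of that of Psmb8 and 42.4% of that of Rtp4. After the filter on low counts 38 members were tested in the fasting table, 37 in the refeeding table (without Psmb8) and 40 in the 1-month table (without Mx1 and Zbp1). A member that is low in most groups can pass this filter through the group where it is high.

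Several members have close copies, and reads can be split between them. Of all stretches of 50 bases in the transcripts of Ifit3, 51.2% are also in those of Ifit3b. The share was 57.6% for Oas1a with Oas1g and other Oas1 copies, 48.5% for Ifitm2, 12.8% for H2-D1, 12.7% for Gbp7, 10.02% for Ifitm3 and 9.63% for H2-K1. Changes of Ifit3, Ifit3b, Oas1a and Ifitm2 are therefore uncertain as to which copy moved.

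Per kilobase of exon, in the 1-month refed libraries, B2m had the highest level of the members at 129 CPM per kb. Ifitm3 followed at 35.1, Ifit3 at 23.8, Ifi27 at 23.8, H2-D1 at 21.3 and H2-K1 at 12.1 CPM per kb. At the low end were Mx1 at 0.222, Ifi44 at 0.329 and Rsad2 at 0.393 CPM per kb. Mx1, Ifi44 and Rsad2, antiviral genes that are strongly induced in infected cells, were thus low beside the class I genes B2m, H2-D1 and H2-K1. This does not hold for antiviral members in general, since Ifitm3 and Ifit3 were above H2-D1 and H2-K1. The interferon genes themselves were barely read. Over Ifnb1, Ifna4, Ifne, Ifng, Ifnk and Ifnl2 together there were 14 counts in 12 fasting libraries, 7 in 10 refeeding libraries and 37 in 8 libraries of the 1-month table. Of these 37, Ifnk gave 32, with 4, 1, 1 and 2 counts in refed libraries 1, 2, 4 and 5 and 7, 8, 4 and 5 in control libraries 2 to 5. Ifnb1 had a single count in all 30 libraries.

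**Figure D1:**
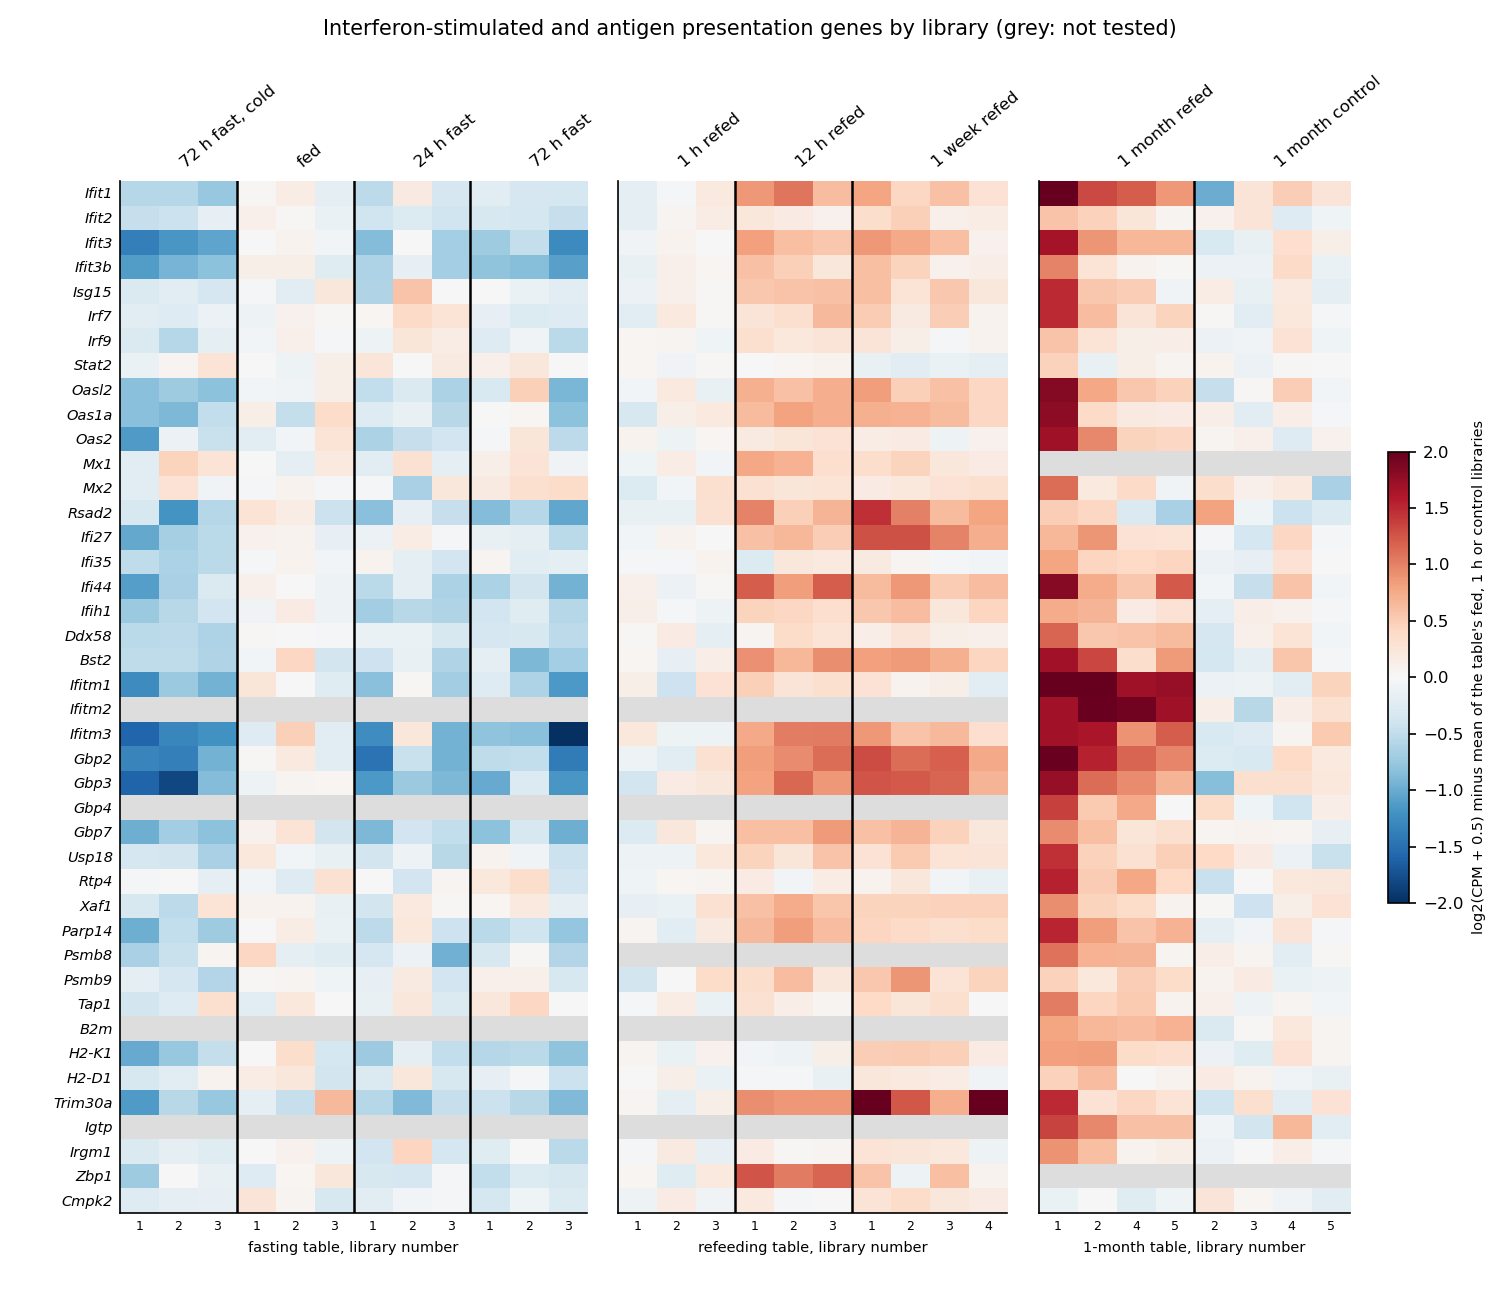
Heat map of 42 members (rows) by library (columns, numbered as in the labels) in the fasting, refeeding and 1-month tables. Colour is log2(CPM + 0.5) minus the mean of the fed, 1 h refed or control libraries of that table, and grey marks members not tested. Fasted libraries are mostly blue, 12 h and 1 week refed libraries mostly red, and 1-month refed library 1 is red in nearly every row.

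After 24 h without food most members stood below the fed level but none passed the test. Of 38 tested, edgeR called 0, DESeq2 called 1, and 8 had an unadjusted p below 0.05, all lower. Of all 20408 genes 0.0343% were called, and 2118 had an unadjusted p below 0.05 in either direction. The members' median log2 fold change was -0.43, against 0.00 over all genes, with 34 negative and 4 positive. In 10 members every 24 h library lay below every fed library, against 6.7% of all genes. Gbp2 and Gbp3, guanylate-binding GTPases of the interferon gamma response, were among the members with the lowest fold changes. Gbp2 had 1.35, 3.25 and 2.16 CPM at 24 h, against 4.70, 5.35 and 3.93 CPM in fed libraries (-1.05 ± 0.34, adjusted p = 0.338). Gbp3 had 1.56, 2.22 and 1.95 CPM at 24 h, against 3.76, 4.24 and 4.18 CPM in fed libraries (-1.09 ± 0.34, adjusted p = 0.329). In both genes the groups were apart, and in both 24 h library 2 was nearest to the fed ones. That library was the highest of its group in 29 of 38 members, and its median difference from the fed mean was -0.13 on the log2 scale, against -0.39 in 24 h libraries 1 and 3. Ifih1, the RNA sensor MDA5, had 5.54, 6.17 and 5.98 CPM at 24 h, against 8.88, 10.5 and 8.63 CPM in fed libraries (-0.66 ± 0.15, adjusted p = 0.202).

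Of the markers of other cells, 1 was called at 24 h over fed, a pericyte and smooth muscle marker, which was lower. A negative fold change with an unadjusted p below 0.05 was found in 7 of 12 endothelial, 6 of 9 pericyte and smooth muscle, 4 of 7 meningeal fibroblast, 5 of 8 choroid plexus, 4 of 8 liver and muscle, 3 of 12 microglial and 3 of 5 blood markers. Such a p, in either direction, was found in 2118 of all 20408 genes. Summed meningeal markers were 46.7 to 65.9 CPM at 24 h, against 78.1 to 128 CPM in fed libraries, and summed endothelial markers 337 to 361 CPM at 24 h, against 381 to 419 CPM in fed libraries. Summed microglial markers overlapped, with 213 to 296 CPM at 24 h, against 235 to 307 CPM in fed libraries. Their part in the members' values was not tested, and in bulk RNA fewer cells of a type and less RNA per cell cannot be told apart.

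After 72 h without food 6 of 38 members fell and none rose. They were Ifit2, Ifit3 and Ifit3b, which bind viral RNA and translation factors, the RNA sensor Ddx58 (RIG-I, named Rigi in the files), Gbp7 and the class I heavy chain H2-K1. Of all genes 15.1% were called and 7.78% were called lower. Their median log2 fold change was -0.36, against 0.01 over all genes, with 32 negative. In 17 members the groups were apart with 72 h lower, against 20.6% of all genes.

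Ifit3b (ENSMUSG00000062488, GRCm38 chromosome 19, 34607970 to 34613401) had 5.60, 5.41 and 4.48 CPM at 72 h, against 11.0, 11.0 and 8.51 CPM in fed libraries. This was a fall to 0.507 of the fed level (log2 fold change -0.98 ± 0.18, edgeR adjusted p = 0.0105), and the groups were apart. Ifit3 had 9.12, 10.8 and 6.07 CPM at 72 h, against 15.2, 16.0 and 14.7 CPM in fed libraries (-0.83 ± 0.24, adjusted p = 0.0369), also with no overlap. Ifit2 had 17.4, 16.9 and 15.6 CPM at 72 h, against 23.3, 22.1 and 19.8 CPM in fed libraries (-0.39 ± 0.11, adjusted p = 0.0366). Ddx58 had 7.69, 7.81 and 6.73 CPM at 72 h, against 10.01, 9.83 and 9.68 CPM in fed libraries (-0.41 ± 0.12, adjusted p = 0.0421). The fed libraries lay close together for this sensor, and all 72 h libraries were below them. H2-K1 had 10.5, 10.7 and 8.86 CPM at 72 h, against 16.0, 20.3 and 12.2 CPM in fed libraries (-0.69 ± 0.20, adjusted p = 0.0404). Gbp7 had 4.06, 5.89 and 3.59 CPM at 72 h, against 8.003, 9.22 and 5.75 CPM in fed libraries (-0.76 ± 0.23, adjusted p = 0.0446), and here 72 h library 2 overlapped fed library 3.

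Others had larger values that did not pass at 72 h. Ifitm3, a membrane protein that blocks entry of viruses, had 3.14, 3.04 and 1.02 CPM at 72 h, against 4.82, 8.30 and 4.93 CPM in fed libraries (-1.33 ± 0.46, adjusted p = 0.0679). Rsad2, the antiviral enzyme viperin, had -1.05 ± 0.33 (adjusted p = 0.0512). Isg15, the ubiquitin-like modifier, had 0.785, 0.668 and 0.591 CPM at 72 h, against 0.759, 0.610 and 0.996 CPM in fed libraries, and the groups overlapped (-0.22 ± 0.43, adjusted p = 0.744). Tap1 had 0.26 ± 0.27 (adjusted p = 0.519) and H2-D1 -0.23 ± 0.19 (adjusted p = 0.394).

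Genes of other cells moved in the same comparison. Of 12 microglial markers 4 were called lower at 72 h and of 12 endothelial markers 8. Summed microglial markers were 179 to 215 CPM at 72 h, against 235 to 307 CPM in fed libraries, and summed endothelial markers 276 to 288 CPM at 72 h, against 381 to 419 CPM in fed libraries. Of the other lists, 5 of 5 blood, 4 of 8 choroid plexus, 4 of 9 pericyte and smooth muscle and 3 of 7 meningeal fibroblast markers were called lower. Summed blood markers were 0.909 to 2.52 CPM at 72 h, against 7.83 to 17.6 CPM in fed libraries. Summed liver and muscle markers, 7 of 8 of them called lower, were 18.6 to 25.5 CPM at 72 h, against 16.2, 168 and 2614 CPM as lowest, median and highest of the fed libraries. Their part in the result was not tested. The count of members called at 72 h fell when any library but fed library 3 was left out. It was 1 without 72 h library 1, 2 without library 2, 1 without library 3, and 1 without fed library 1 or without fed library 2. DESeq2 called 13 and the fit with 1 surrogate variable 0. The shares of all genes called in these fits are not given here.

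From 24 h to 72 h of fasting no member was called by edgeR or by DESeq2, and edgeR called 1.63% of all genes. An unadjusted p below 0.05 was found in 3 of 38 members, all lower at 72 h, and in 4799 of all 20408 genes in either direction. The members' median was -0.11. Cold during the 72 h fast likewise gave 0 calls among the members by edgeR and by DESeq2, and edgeR called 0.0% of all genes. An unadjusted p below 0.05 was found in 4 members, all lower in the cold, and in 1296 of all 20408 genes in either direction. The members' median was -0.18, with 29 of 38 negative. Ifit3 had 5.65, 6.59 and 7.12 CPM in the cold, against 9.12, 10.8 and 6.07 CPM at 72 h without cold. Gbp3 had 1.01, 0.792 and 1.98 CPM in the cold, against 1.76, 3.28 and 1.52 CPM at 72 h without cold. In both genes the groups overlapped.

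**Figure D2:**
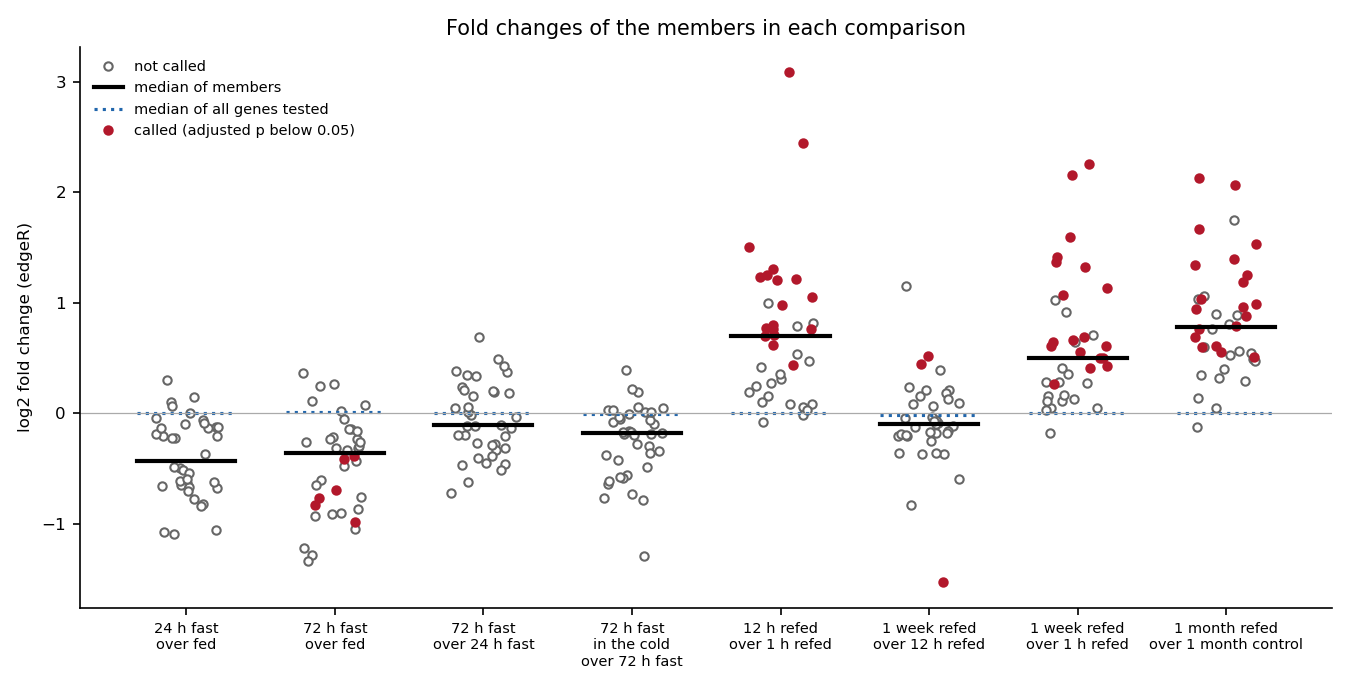
Log2 fold change of each tested member (points, edgeR) in 8 comparisons. Red points passed at an adjusted p below 0.05, black lines are the members' medians and dotted lines the medians of all genes tested. The members' median is -0.36 for 72 h over fed, 0.70 for 12 h over 1 h refed and 0.78 for 1 month refed over control, with the medians of all genes at about 0.

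After 12 h of refeeding 18 of 37 members were higher than after 1 h and none was lower. Of all 19932 genes 14.2% were called and 7.08% were called higher. The members' median log2 fold change was 0.70, against 0.00 over all genes, and 35 were positive. In 24 members every 12 h library lay above every 1 h library, against 15.6% of all genes. At 1 week 19 of 37 were called higher than at 1 h and none was called lower, where 26.9% of all genes were called and 13.5% called higher. The median was 0.50, with 20 members apart and higher, against 18.5% of all genes. Stat2 alone was apart and lower, as were 3665 of all 19932 genes. It had 16.2 to 17.3 CPM at 1 week, against 18.1 to 19.5 CPM at 1 h, and was not called. These comparisons share the 1 h libraries, and the 1-week libraries were the deepest of this table. Between 1 week and 12 h directly, 3 members differed, with Ifi27 and H2-K1 higher and Zbp1 lower at 1 week, where 11.6% of all genes were called, 6.56% higher and 5.0% lower.

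Among RNA sensors and transcription factors, Ifih1 was called and Ddx58, Irf7, Irf9 and Stat2 were not. Ifih1 had 4.36, 3.94 and 3.71 CPM at 1 h, 5.61, 5.48 and 5.19 CPM at 12 h and 6.05, 6.39, 4.77 and 5.54 CPM at 1 week, and rose at 12 h (0.44 ± 0.14, adjusted p = 0.0463) and at 1 week (0.50 ± 0.13, adjusted p = 0.00866). Irf7, the factor that amplifies the type I response, had 1.24, 1.81 and 1.55 CPM at 1 h, 1.92, 2.02 and 2.69 CPM at 12 h and 2.38, 1.79, 2.35 and 1.62 CPM at 1 week. All its 12 h libraries were above the 1 h ones, but it did not pass (0.53 ± 0.23, adjusted p = 0.131). Irf9 had 0.28 ± 0.10 (adjusted p = 0.0831), Stat2 0.03 ± 0.08 (adjusted p = 0.818) and Ddx58 0.25 ± 0.13 (adjusted p = 0.203) at 12 h over 1 h.

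Ifit1, which binds viral RNA, was among the antiviral effectors called. This gene (ENSMUSG00000034459, chromosome 19, 34640871 to 34650009), whose promoter holds 2 ISRE cores, had 2.07, 2.37 and 2.84 CPM at 1 h, 4.80, 5.62 and 3.98 CPM at 12 h and 4.51, 3.36, 3.87 and 3.05 CPM at 1 week. It was 1.97-fold higher at 12 h than at 1 h (log2 fold change 0.98 ± 0.19, adjusted p = 0.00431) and 1.52-fold higher at 1 week than at 1 h (0.61 ± 0.18, adjusted p = 0.0201), and at neither time did the groups overlap. Ifit3 had 5.16, 5.75 and 5.38 CPM at 1 h, 9.99, 8.47 and 8.15 CPM at 12 h and 10.3, 9.54, 8.47 and 5.79 CPM at 1 week (0.71 ± 0.18 at 12 h, adjusted p = 0.0185, and 0.65 ± 0.17 at 1 week, adjusted p = 0.0103). The fourth 1-week library lay just above the 1 h libraries and the other 3 with the 12 h ones. Isg15 had 0.796, 1.01 and 0.927 CPM at 1 h, 1.54, 1.58 and 1.62 CPM at 12 h and 1.64, 1.198, 1.55 and 1.14 CPM at 1 week, 1.74-fold higher at 12 h (adjusted p = 0.0296) and 1.52-fold at 1 week (adjusted p = 0.0407).

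Oasl2, a member of the oligoadenylate synthetase family, had 2.67, 3.27 and 2.45 CPM at 1 h, 4.88, 4.44 and 4.93 CPM at 12 h and 5.34, 4.08, 4.44 and 3.87 CPM at 1 week (0.77 ± 0.16, adjusted p = 0.00695, and 0.67 ± 0.15, adjusted p = 0.00465). Bst2, or tetherin, which holds budding virus on the cell, had 0.669, 0.523 and 0.747 CPM at 1 h, 1.65, 1.31 and 1.68 CPM at 12 h and 1.52, 1.56, 1.37 and 1.04 CPM at 1 week. It was 2.38-fold higher at 12 h (1.25 ± 0.25, adjusted p = 0.00494) and 2.10-fold at 1 week (1.07 ± 0.23, adjusted p = 0.00361). Ifitm3 had 3.44, 2.68 and 2.69 CPM at 1 h, 5.30, 6.42 and 6.49 CPM at 12 h and 5.75, 4.603, 4.85 and 3.82 CPM at 1 week (1.05 ± 0.17, adjusted p = 0.00153, and 0.69 ± 0.16, adjusted p = 0.00521). For these genes each 12 h and 1-week library was above each 1 h library.

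Ifi44 had the largest fold change of the members at 12 h, on few counts. There were 4, 1 and 3 counts at 1 h, 22, 16 and 29 at 12 h and 23, 27, 21 and 23 at 1 week, which is 0.127, 0.0348 and 0.0897 CPM, then 0.845, 0.538 and 0.856 CPM, then 0.406, 0.568, 0.332 and 0.392 CPM (3.08 ± 0.47 at 12 h, adjusted p = 0.00108, and 2.26 ± 0.47 at 1 week, adjusted p = 0.00272). Zbp1, a sensor of left-handed nucleic acid that can start cell death, had 6, 2 and 9 counts at 1 h, 29, 26 and 34 at 12 h and 28, 6, 33 and 12 at 1 week. It rose at 12 h (2.44 ± 0.53, adjusted p = 0.00789) and was lower at 1 week than at 12 h (-1.53 ± 0.40, adjusted p = 0.0259), and it was not called at 1 week over 1 h (0.91 ± 0.54, adjusted p = 0.227). Oas1a (1.51 ± 0.39, adjusted p = 0.0198), Mx1 (1.30 ± 0.37, adjusted p = 0.0297) and Rsad2 (2.3-fold, adjusted p = 0.0490) rose at 12 h as well, each from under 1 CPM. Rsad2 was 3.02-fold higher at 1 week than at 1 h, and Oas1a 2.51-fold (adjusted p = 0.0135).

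All 3 guanylate-binding members tested in this table, Gbp2, Gbp3 and Gbp7, rose at both times. Gbp2 (ENSMUSG00000028270, chromosome 3, 142620602 to 142638008) had 1.05, 0.941 and 1.55 CPM at 1 h, 2.46, 2.69 and 3.10 CPM at 12 h and 3.60, 3.11, 3.29 and 2.30 CPM at 1 week (1.21 ± 0.23, adjusted p = 0.00369, and 1.37 ± 0.21, adjusted p = 0.000364). Gbp3 had 0.605, 1.11 and 1.196 CPM at 1 h, 2.04, 2.72 and 2.13 CPM at 12 h and 2.96, 2.90, 2.73 and 1.82 CPM at 1 week (1.24 ± 0.27, adjusted p = 0.00800, and 1.42 ± 0.25, adjusted p = 0.000842). Gbp7 rose by less, 1.70-fold at 12 h (adjusted p = 0.0114) and 1.47-fold at 1 week (adjusted p = 0.0208). Of the immunity-related GTPases, Irgm1 had 0.08 ± 0.14 at 12 h (adjusted p = 0.740) and was not called. Among other effectors, Parp14, a mono-ADP-ribosyltransferase, had 3.47, 2.75 and 3.80 CPM at 1 h, 5.49, 6.29 and 5.34 CPM at 12 h and 4.62, 4.50, 4.25 and 4.39 CPM at 1 week, with every refed library past 1 h above every 1 h library (0.77 ± 0.14 at 12 h, adjusted p = 0.00303, and 0.41 ± 0.13 at 1 week, adjusted p = 0.0314). Xaf1, which favours apoptosis, had 2.26, 2.30 and 3.29 CPM at 1 h, 4.15, 4.64 and 4.01 CPM at 12 h and 3.70, 3.68, 3.75 and 3.75 CPM at 1 week (0.70 ± 0.16, adjusted p = 0.0105, and 0.50 ± 0.15, adjusted p = 0.0203).

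Of the antigen presentation members tested in this table, H2-K1 was called at 1 week and H2-D1, Tap1 and Psmb9 at no time. H2-K1 (ENSMUSG00000061232, chromosome 17, 33996017 to 34000347) had 10.6, 9.23 and 10.8 CPM at 1 h, 9.84, 9.48 and 11.1 CPM at 12 h and 14.5, 14.7, 14.4 and 11.5 CPM at 1 week. It was not called at 12 h (-0.01 ± 0.12, adjusted p = 0.959) and was higher at 1 week, both over 12 h (0.44 ± 0.11, adjusted p = 0.0164) and over 1 h (0.43 ± 0.11, adjusted p = 0.00781). H2-D1 had 23.5, 25.4 and 21.2 CPM at 1 h, 22.6, 22.6 and 20.96 CPM at 12 h and 27.2, 26.6, 25.8 and 22.3 CPM at 1 week and was not called (0.13 ± 0.09 at 1 week over 1 h, adjusted p = 0.295). Tap1 had 0.20 ± 0.18 at 12 h and 0.29 ± 0.16 at 1 week, and Psmb9, an immunoproteasome subunit, 0.79 ± 0.46 and 1.03 ± 0.41, none of them called. Ifi27, a mitochondrial protein induced by type I interferon, kept rising. It had 6.02, 6.62 and 6.28 CPM at 1 h, 9.72, 10.3 and 9.06 CPM at 12 h and 15.9, 15.9, 13.0 and 10.7 CPM at 1 week, 1.54-fold higher at 12 h than at 1 h (adjusted p = 0.0110), 1.43-fold higher at 1 week than at 12 h (adjusted p = 0.0192) and 2.20-fold higher at 1 week than at 1 h (adjusted p = 5.2e-05). Trim30a, an inhibitor of inflammatory signalling, had 2.71, 2.23 and 2.84 CPM at 1 h, 5.34, 5.14 and 5.14 CPM at 12 h and 20.6, 6.81, 4.58 and 14.3 CPM at 1 week. Its 1-week libraries spread widely, and the call at 1 week over 1 h (2.15 ± 0.56, adjusted p = 0.0255) was lost without 1-week library 4, without any of the 1 h libraries, and in the fit of those groups alone. Cmpk2, a mitochondrial nucleotide kinase, was 1.201-fold higher at 1 week than at 1 h (adjusted p = 0.0371) with overlapping groups.

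**Figure D3:**
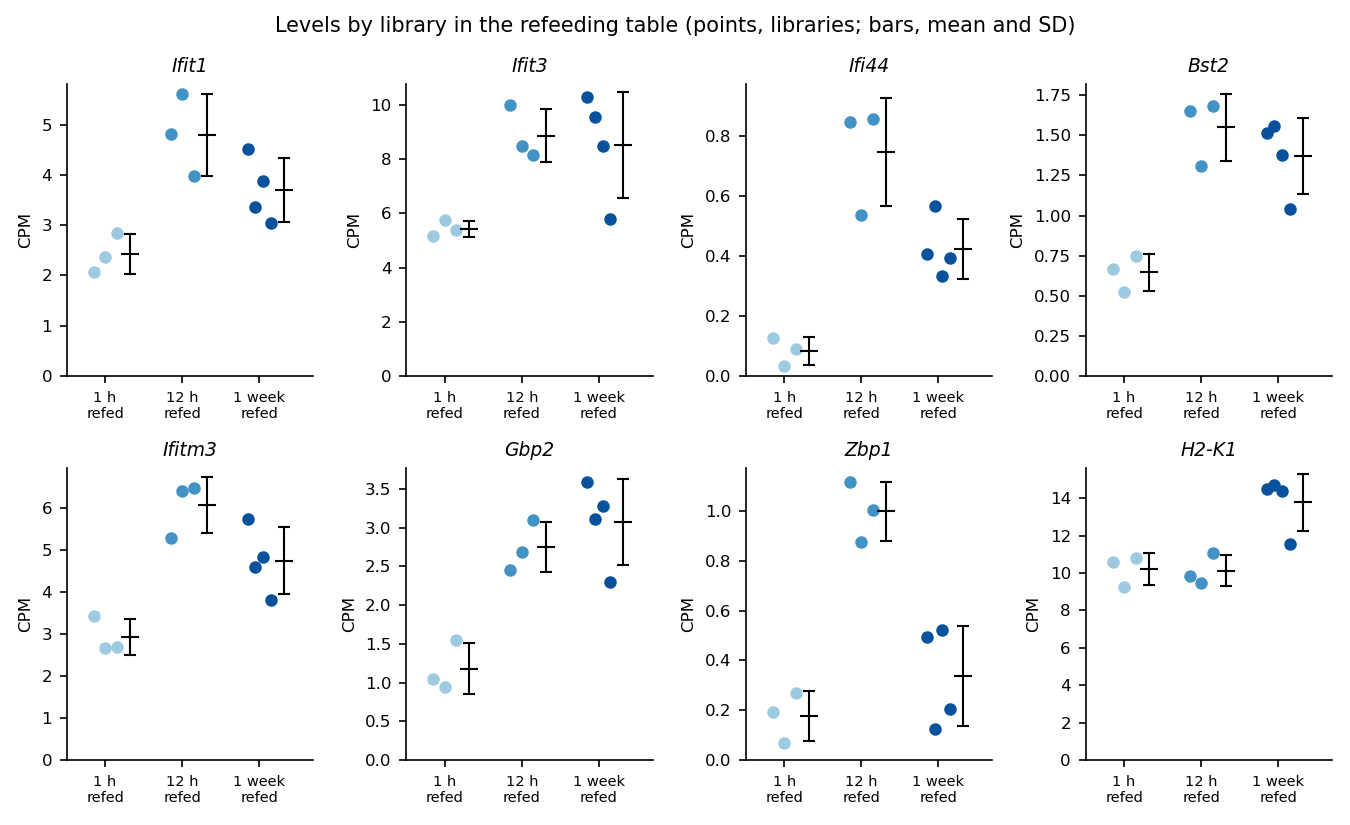
CPM of 8 members in each refeeding library (points), with the mean and SD beside each group (n = 3, 3 and 4). Ifit1, Ifi44, Bst2, Ifitm3 and Gbp2 are higher in every 12 h and 1-week library than in any 1 h library, Zbp1 peaks at 12 h, and H2-K1 is at 9.48 to 11.1 CPM at 12 h and at 11.5 to 14.7 CPM at 1 week.

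Microglial markers moved in the refeeding table too. Of 12, 5 were called higher at 12 h over 1 h and 9 higher and 1 lower at 1 week over 1 h. Their summed level was 183 to 198 CPM at 1 h, 222 to 261 CPM at 12 h and 224 to 260 CPM at 1 week. P2ry12, a further microglial marker, had no count here or in the fasting table but had counts in every 1-month library. Whether this comes from the counting of genes inside other genes was not tested. Of 12 endothelial markers 2 were higher and 2 lower at 12 h, with sums of 173 to 251 CPM at 1 h, 158 to 223 CPM at 12 h and 145 to 162 CPM at 1 week. Blood markers, the haemoglobins among them, were not called at 12 h over 1 h (0 of 5 by edgeR, 0 at an unadjusted p below 0.05, sums of 68.4 to 123 CPM at 1 h and 76.5 to 120 CPM at 12 h) but 5 of 5 were higher at 1 week, with sums of 401 to 1258 CPM. Of 7 meningeal fibroblast markers 1 was higher at 12 h over 1 h, 5 at 1 week over 1 h and 4 at 1 week over 12 h, with sums of 31.98 to 59.1 CPM at 1 h, 58.9 to 70.1 CPM at 12 h and 97.9 to 138 CPM at 1 week. Their part in the members' rise was not tested. The count of 18 calls at 12 h and that of 19 at 1 week each became 11 without 1 h library 1, and the 3 calls between 1 week and 12 h became 1 without 12 h library 2, without 12 h library 3 or without 1-week library 1. At 12 h, Bst2, Gbp2, Gbp3, Ifi27, Ifi44, Ifit1, Ifitm3, Oasl2, Parp14 and Zbp1 (10 of 18) kept their calls without any single library and under every other setting tried.

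After 1 month of refeeding 20 of 40 members were higher than in fed controls and none was lower. Of all 14867 genes 10.1% were called and 6.37% were called higher. The members' median log2 fold change was 0.78, against 0.00 over all genes, with 39 positive. An unadjusted p below 0.05 was found in 34 of 40 members and in 4028 of all 14867 genes in either direction. In 19 members every refed library lay above every control, against 9.05% of all genes.

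The interferon-induced transmembrane genes Ifitm1 and Ifitm2 had the largest fold changes and the smallest adjusted p-values of the members, and Ifitm3 was higher too. Ifitm1 (ENSMUSG00000025491, chromosome 7, 140967221 to 140969825) had 11.6, 14.98, 9.32 and 9.61 CPM in refed libraries 1, 2, 4 and 5, against 2.30, 2.32, 2.11 and 3.62 CPM in control libraries 2 to 5. It was 4.38-fold higher (log2 fold change 2.13 ± 0.21, edgeR adjusted p = 1.17e-05). Ifitm2 had 6.62, 8.24, 7.91 and 6.65 CPM in refed libraries, against 1.92, 1.01, 1.92 and 2.22 CPM in controls (2.07 ± 0.23, adjusted p = 2.93e-05). Other genes, Gm45717 among them, share 48.5% of its transcript stretches, so which copy moved is uncertain. Ifitm3 had 29.2, 28.4, 16.8 and 21.01 CPM in refed libraries, against 7.01, 7.27, 9.11 and 12.8 CPM in controls (1.40 ± 0.21, adjusted p = 0.00161). In all 3 genes the refed libraries were all above the controls. Ifitm1 in the refeeding table had 1.46, 0.871 and 1.73 CPM at 1 h, 2.04, 1.68 and 1.77 CPM at 12 h and 1.73, 1.41, 1.47 and 1.06 CPM at 1 week and was not called there.

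Antigen presentation was the next group. B2m (ENSMUSG00000060802, chromosome 2, 122147686 to 122153083), the light chain of every class I molecule, had 118, 109, 105 and 111 CPM in refed libraries, against 55.5, 69.6, 79.2 and 70.6 CPM in controls, a 1.61-fold rise (0.69 ± 0.09, adjusted p = 0.000147). The refed libraries differed little among themselves. H2-K1 had 41.2, 41.6, 30.0 and 29.4 CPM in refed libraries, against 21.3, 19.6, 28.6 and 24.2 CPM in controls (0.61 ± 0.14, adjusted p = 0.0119), and refed library 5 lay just above control library 4. Psmb8, an immunoproteasome subunit, had 5.90, 4.37, 4.33 and 2.64 CPM in refed libraries, against 2.78, 2.63, 2.11 and 2.55 CPM in controls, with overlap (0.79 ± 0.24, adjusted p = 0.0442). H2-D1 had 61.2, 68.2, 43.7 and 46.3 CPM in refed libraries, against 49.4, 46.3, 41.8 and 39.6 CPM in controls, overlapping and not called (0.32 ± 0.13, adjusted p = 0.132). Tap1 (0.60 ± 0.19, adjusted p = 0.0511) and Psmb9 (0.48 ± 0.25, adjusted p = 0.227) were not called.

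Of the 4 guanylate-binding members tested, 3 were higher, and Gbp4 (3.16 CPM on average in refed libraries, against 1.72 CPM in controls, adjusted p = 0.0779, with overlap) was not called. Gbp2 had 21.7, 15.8, 12.0 and 10.6 CPM in refed libraries, against 4.13, 4.02, 6.90 and 5.93 CPM in controls, 2.90-fold higher (1.53 ± 0.23, adjusted p = 0.000934). Gbp3 had 14.8, 9.32, 8.28 and 6.76 CPM in refed libraries, against 2.02, 5.19, 5.18 and 4.77 CPM in controls (1.19 ± 0.28, adjusted p = 0.0179). Gbp7 was 1.52-fold higher (adjusted p = 0.0397), and Igtp, an immunity-related GTPase, 1.92-fold (adjusted p = 0.0260) with overlap. Of the sensors, Ddx58 had 26.1, 16.8, 17.1 and 17.8 CPM in refed libraries, against 8.93, 12.2, 13.9 and 10.9 CPM in controls (0.76 ± 0.16, adjusted p = 0.00682). Ifih1 was 1.42-fold higher (adjusted p = 0.0381). The transcription factor Irf7 was 1.84-fold higher (0.88 ± 0.26, adjusted p = 0.0424). In each of these the refed libraries were all above the controls, as in Parp14, which had 27.3, 16.8, 13.9 and 15.2 CPM in refed libraries, against 8.07, 8.82, 11.1 and 9.05 CPM in controls (0.99 ± 0.19, adjusted p = 0.00522). Bst2 had 9.72, 7.60, 3.58 and 5.28 CPM in refed libraries, against 2.02, 2.32, 4.22 and 2.63 CPM in controls, with refed library 4 below control library 4 (1.25 ± 0.30, adjusted p = 0.0167). Ifit3 (2.05-fold, adjusted p = 0.0414), Oas2 (2.54-fold, adjusted p = 0.0275), Ifi35 (1.47-fold, adjusted p = 0.0482), Ifi44 (3.17-fold, adjusted p = 0.0219) and the receptor-transporting protein gene Rtp4 (1.94-fold, adjusted p = 0.0320) complete the calls.

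Ifit1, whose fold change was among the largest, did not pass. It had 27.5, 10.2, 9.41 and 7.29 CPM in refed libraries, against 1.63, 4.57, 5.47 and 4.61 CPM in controls (1.75 ± 0.55, adjusted p = 0.0916), so the groups were apart but refed library 1 stood well above its companions. Isg15 had 6.91, 3.30, 3.20 and 2.01 CPM in refed libraries, against 2.40, 1.86, 2.49 and 1.81 CPM in controls, with overlap (0.89 ± 0.32, adjusted p = 0.0856). Oasl2 had 32.2, 15.3, 12.8 and 12.1 CPM in refed libraries, against 6.14, 8.82, 12.5 and 8.40 CPM in controls (1.03 ± 0.37, adjusted p = 0.125). Stat2 (0.14 ± 0.12), Irf9 (0.29 ± 0.13) and Rsad2 (0.05 ± 0.38) were not called.

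**Figure D4:**
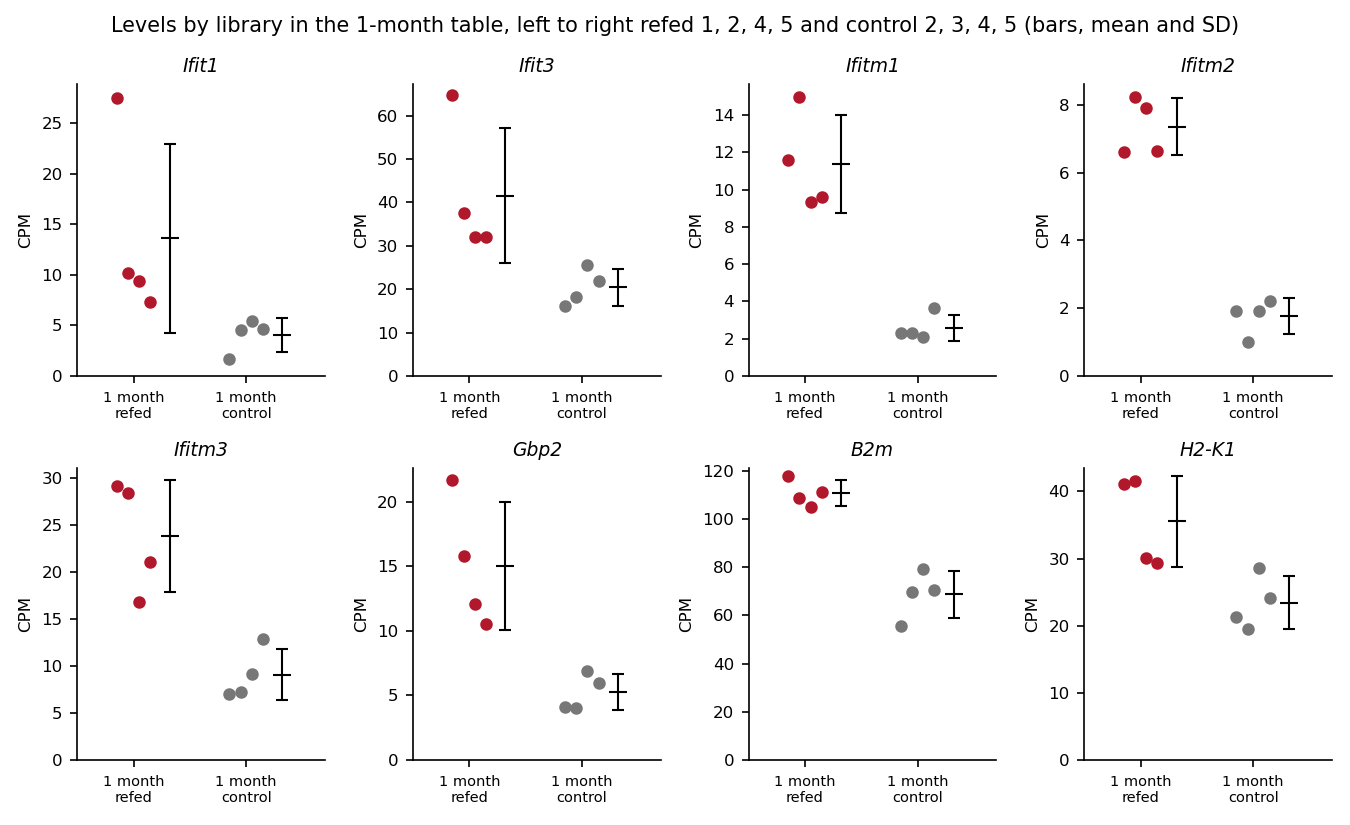
CPM of 8 members in refed libraries 1, 2, 4 and 5 and control libraries 2, 3, 4 and 5 (points, left to right) after 1 month, with the mean and SD of each group (n = 4). Refed library 1 is far above the others for Ifit1 (27.5 CPM) and Ifit3 (64.7 CPM), while for Ifitm2 and B2m the refed libraries lie together at 6.62 to 8.24 CPM and 105 to 118 CPM.

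Refed library 1 was the highest of its group in 33 of 40 members. Its median difference from the control mean was 1.25 on the log2 scale, against 0.61, 0.43 and 0.35 in refed libraries 2, 4 and 5, and -0.08 to 0.16 in the controls, so each refed library lay above each control in this measure. Without refed library 1 the members called numbered 11, of which 10 were among the 20, and the median was 0.50. Without refed library 2 there were 11, without control library 2 there were 9 and without control library 3 there were 8. B2m, Ddx58, Gbp2, Gbp3, Ifitm1, Ifitm2, Ifitm3 and Parp14 (8 of 20) kept their calls without any single library. With a replicate block 6 members were called, with 1 surrogate variable 3, and B2m, Ifitm1 and Ifitm2 (3 of 20) kept their calls under every setting tried.

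Cell type markers differed between the 1-month groups as well. All 8 meningeal fibroblast markers were called higher, with a median log2 fold change of 2.40, and their summed level was 597, 839, 508 and 502 CPM in refed libraries, against 112, 83.3, 99.4 and 195 CPM in controls. Of 12 endothelial markers 8 were higher, with sums of 567 to 741 CPM in refed libraries, against 429 to 486 CPM in controls. Ly6a, in that list, is itself induced by interferon in mice. Summed pericyte and smooth muscle markers were 321 to 504 CPM in refed libraries, against 177 to 219 CPM in controls, with 3 of 8 called. Of 13 microglial markers 3 were higher, the complement genes C1qa, C1qb and C1qc, with sums of 437 to 483 CPM in refed libraries, against 351 to 417 CPM in controls. Summed lymphocyte and leukocyte markers were 4.43 to 8.89 CPM in refed libraries, where 2 to 7 of the 14 were at 0, against 1.86 to 3.62 CPM in controls, where 4 to 9 were at 0. Of 6 oligodendrocyte markers 2 were higher, with sums of 2292 to 3472 CPM in refed libraries, against 1622 to 2282 CPM in controls. Of 6 neuron markers all had negative fold changes, 4 with an unadjusted p below 0.05 and none called, with sums of 1727 to 1921 CPM in refed libraries, against 1861 to 2322 CPM in controls. Refed library 2 was the highest in the meningeal, endothelial and pericyte sums. Refed library 1 was the highest in the members' median and in 33 of 40 members. In 6 members refed library 2 was the highest, among them Ifitm1 and Ifitm2, which had the largest fold changes. The part of these cells in the members' rise was not tested.

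**Figure D5:**
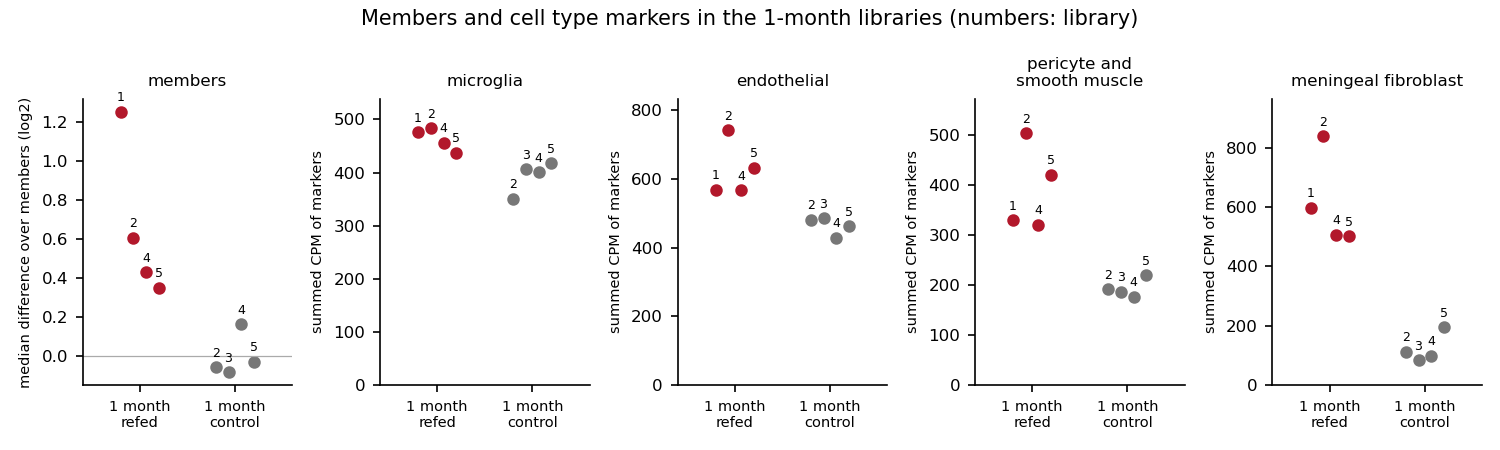
Median log2 difference of the members from the control mean, and summed CPM of microglial, endothelial, pericyte and smooth muscle, and meningeal fibroblast markers, in each 1-month library (points, numbered; refed on the left of each panel, controls on the right). Refed libraries are above controls in every panel, with meningeal sums of 502 to 839 CPM in refed libraries and 83.3 to 195 CPM in controls.

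Across the series, 33 of 42 members were called in at least 1 comparison and 9 in none. The background is 44.2%, the share of the 21728 genes tested that were called in at least 1. The 9 were Irf9, Stat2, Mx2, Gbp4, Usp18, Psmb9, Tap1, H2-D1 and Irgm1. Of these, Gbp4 could be tested at 1 month only, and other genes overlap 62.8% of the span of Usp18, so they were not found unchanged throughout. The calls at 12 h over 1 h and at 1 month over control rest on different libraries, and 9 members had both. Among the 35 members tested at both times, this was 9 of the 16 higher at 12 h and 9 of the 16 higher at 1 month. The share called higher in both was 0.76% of the 13943 genes tested at both times, which is 106 of the 1059 higher at 12 h and of the 887 higher at 1 month. The 9 members were Ifit3, Ifi44, Ifih1, Bst2, Ifitm3, Gbp2, Gbp3, Gbp7 and Parp14. Ifit3 and Gbp7 were in addition lower at 72 h over fed, and Ddx58 and H2-K1 were lower at 72 h over fed and higher at 1 month. Isg15, Ifit1, Oasl2, Oas1a, Mx1, Rsad2, Ifi27, Xaf1 and Zbp1 were called at 12 h and not at 1 month, where Mx1 and Zbp1 were not tested, while Ifitm1, Irf7, Oas2, Ifi35, Ddx58, Rtp4 and H2-K1 were called at 1 month and not at 12 h. Whether these differ between the times was not tested, since the tables were scaled and counted separately.

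Genes of the same pathways outside the 42 were read from fixed lists. Of 33 or 34 other interferon-stimulated genes tested, 3 were lower at 72 h over fed, 7 higher at 12 h over 1 h and 18 higher at 1 month (medians -0.24, 0.37 and 0.67). At 1 month these included Tgtp1 and Tgtp2, a pair of near-identical T-cell GTPase genes (2.11 and 2.21), Parp9 (0.77) and Sp100 (1.03), and at 12 h Slfn8 (1.32), Ddx60 (0.93), Trim34a (0.85) and Iigp1 (1.21). MHC class II genes, which present peptides on microglia, macrophages and B cells, were read from a list of their own. H2-Eb1, H2-Ab1, Cd74 and H2-Aa had log2 fold changes of 2.03, 2.40, 2.27 and 2.87 at 1 month (adjusted p = 6.65e-05 to 0.000181), and 5 of 7 tested were called higher. At 12 h over 1 h, Cd74 (1.11), H2-Aa (1.32) and H2-Ab1 (1.35) were called higher, 3 of 7. At 72 h over fed, 1 of 7 was called, H2-DMa, which was higher (0.44). The other 6 had negative fold changes and were not called, and the median of the 7 was -0.49.

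Of the interferons, receptors and signal genes 0 of 14 were called by edgeR at 72 h over fed (3 at an unadjusted p below 0.05), 1 of 14 at 12 h over 1 h (Jak2, lower, -0.24) and 2 of 15 at 1 month (the receptor chains Ifnar1, 0.32, and Ifngr1, 0.42, both higher). Of the nucleic acid sensors and adaptors 1 of 18 was lower at 72 h over fed (the RNA receptor Tlr3, -0.66), 2 of 18 were higher at 12 h over 1 h (Dhx58, 1.11, and Trim25, 0.40) and 2 lower (Tlr9 and Tbk1), and 4 of 20 were higher at 1 month, Tlr3 (0.93), Ifi204 (1.72), Ticam1 (0.46) and Eif2ak2 (0.61), with Adar lower (-0.25). Of the other class I and peptide loading genes 4 of 15 were lower at 72 h over fed, among them the chaperones Calr (-0.60), Canx (-0.48) and Pdia3 (-0.50), which fold many other proteins too, 1 of 15 was higher at 12 h over 1 h (Calr, 0.40), 5 of 15 were higher at 1 week over 12 h, and 4 of 18 were higher at 1 month, Tapbp (0.43), H2-T23 (0.72), Erap1 (0.56) and Pdia3 (0.24). The lists were chosen with earlier results of these data known, and read against the shares of all genes called in each comparison given above.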

How the data were processed

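Total RNA of hypothalamus had been extracted on RNeasy columns and made into directional, rRNA-depleted libraries, per the labels' protocols. Reads had been aligned with HISAT2 to mm10, counted with featureCounts and compared with edgeR, with versions not given, per the submitters' processing notes. The authors deposited 3 tables of raw counts per gene; their comparison tables were not used, and 2 columns that match no sample were left out. Each table was fitted with all its groups in edgeR 4.0.16 (R 4.3.3), with filterByExpr, TMM scaling and robust quasi-likelihood tests, and p-values were adjusted over all genes tested. Errors of fold changes are standard errors. The fit was tested on simulated data. Alternatives were RLE scaling, DESeq2 1.42.0, no filter on low counts, the groups compared alone, a replicate block, 1 surrogate variable (sva 3.50.0) and each library left out in turn. Replicate pairs differed beyond sampling noise (lowest chi-square per degree of freedom 3.15 over 36 pairs). Exon lengths, overlaps and transcript stretches come from GENCODE M21 and promoters from RefSeq. Every called member is named, up to 10 per comparison with each library's value, and up to 4 called genes of each pathway list by adjusted p; Isg15, Ifit1, Ifit3, Irf7, Irf9, Stat2, Oasl2, Bst2, Ifitm3, B2m, H2-K1, H2-D1, Tap1 and Psmb8 could be given anywhere. Uncalled members named beyond these were chosen after their values were seen. The members and lists were chosen with earlier results of these data known.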

Additional observations from a re-analysis of the deposited data

Results flagged for a closer look

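In groups of 4 libraries, 117 sets of 4 values were screened for a library whose gap to its nearest neighbour took up most of the group's range, and 16 stood out. Chance gives about 1 in 20 for independent sets. Members read in the same libraries are not independent, so an excess over chance cannot be read from this count. Of the 16, 8 were 1-month refed library 1 above its 3 companions. It stood at 27.5 CPM for Ifit1 (others 7.29 to 10.2), 64.7 for Ifit3 (others 31.995 to 37.5), 32.2 for Oasl2 (others 12.1 to 15.3) and 5.90 for Oas1a (others 1.58 to 1.93). It also stood at 9.07 CPM for Ifi35 (others 6.87 to 7.02), 26.1 for Ddx58 (others 16.8 to 17.8), 11.6 for Usp18 (others 4.89 to 5.60) and 9.50 for Trim30a (others 3.80 to 4.24).

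Among 1-month controls, library 4 was high for Ifit3b at 20.2 CPM (others 14.0 to 14.2) and for Irf9 at 20.3 CPM (others 15.3 to 15.7) and low for Oas2 at 0.671 CPM (others 0.960 to 1.01). Control library 5 was high for Ifitm1 at 3.62 CPM (others 2.11 to 2.32) and low for Gbp7 at 5.10 CPM (others 6.04 to 6.11), and control library 2 was low for Gbp3 at 2.02 CPM (others 4.77 to 5.19). At 1 week of refeeding, library 2 was high for Usp18 at 0.757 CPM (others 0.545 to 0.564) and library 4 low for H2-K1 at 11.5 CPM (others 14.4 to 14.7).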

How the results depend on the processing

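No member's fold change turned its direction while called under any alternative run. At 1 month the 20 calls became 6 with a replicate block and 3 with 1 surrogate variable (B2m, Ifitm1 and Ifitm2), and 8 to 25 with a library left out. At 72 h over fed the 6 calls became 13 with DESeq2, 0 with 1 surrogate variable and 1 to 8 with a library left out. At 12 h over 1 h refed the 18 calls became 11 to 14 with a library left out, at 1 week over 1 h the 19 became 11 to 18, and at 1 week over 12 h the 3 became 1 to 4, and 0 with 1 surrogate variable. At 24 h over fed DESeq2 called 1. The libraries whose loss moved a count by over 1.5 times are named with the comparisons. Other counts moved by less. The shares of all genes called under each alternative are not given here. A change in the members' count can therefore not be told from one over all genes. The cause of these changes was not tested.

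Same-numbered libraries did not in general deviate together (correlations of -0.31 to 0.42, and 18 of 60 matched their own number best). This cannot exclude that the numbers pair the samples. The 1-week numbers are those of the sample titles, and the deposited columns are numbered in another order. At 1 month, refed library 1 and control library 3 have no same-numbered partner, so the comparison with the block rests on libraries 2, 4 and 5. With the replicate block 7 members were called at 72 h over fed, 17 at 12 h over 1 h, 17 at 1 week over 1 h and 4 at 1 week over 12 h. Members under 1 CPM, such as Ifi44 and Mx1, rest on few counts, and those inside other genes could be read in the 1-month table only.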
